A study of Homo sapiens with 7 samples.

Results

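The metallothioneins, the 2 families of zinc transporters and the zinc-sensing transcription factor MTF1 were examined as 1 group of 34 genes, out of 36337 gene names on the array. Members were taken by gene name from a list set by gene family, with no threshold on a measured value: MTF1, 9 metallothioneins, the 10 SLC30 genes and the 14 SLC39 genes. All measurements came from HCT116, a human colon carcinoma line described as diploid in the labels, in a derivative that carries the histone H2B fused to GFP. The 4 samples, replicates 1 to 4, had each received 10 nM bafilomycin for 30 h in DMEM with 10% serum as the labels give it (the methods of the study give a lower share), and each was hybridised to 1 single-colour Agilent array. Bafilomycin A1, as the study names the compound, inhibits the vacuolar proton pump that acidifies lysosomes and other vesicles. The 3 untreated samples of the line were not analysed here. Every value below therefore describes treated cells and the error between their replicates, and no change with treatment can be read from it. The labels number the replicates without saying whether they came from separate cultures. The methods of the study describe its evaluated experiments in general as independent biological replicates.

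Metallothioneins are small, cysteine-rich proteins that bind zinc and copper and buffer their free level in the cytosol. When free zinc rises, MTF1 binds it, enters the nucleus and activates genes that carry metal response elements, among them the metallothioneins and the zinc exporter SLC30A1. SLC30 proteins (ZnT) move zinc out of the cytosol, across the plasma membrane or into vesicles and the Golgi, several of them in exchange for protons. SLC39 proteins (ZIP) move zinc into the cytosol from outside the cell or from organelles. The intestinal epithelium is a main site of zinc uptake, through SLC39A4.

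The metallothionein probes are shown first, because their sequences bear on which gene each value belongs to. The 60-base probes for MT1A, MT1H and MT1X that read as an open cysteine-rich frame lie in coding sequence. Capitals mark the longest run of bases each shares with another metallothionein probe: 27 bases between MT1A and MT1H, and 26 bases between MT1X and MT1H.
MT1A: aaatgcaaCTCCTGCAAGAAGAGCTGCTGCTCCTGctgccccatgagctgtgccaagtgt
MT1H: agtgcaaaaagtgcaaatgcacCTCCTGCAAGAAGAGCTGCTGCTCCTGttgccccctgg
MT1X: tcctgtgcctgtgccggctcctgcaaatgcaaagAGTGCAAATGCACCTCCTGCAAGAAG
On GRCh37 these probes lie on the plus strand of chromosome 16, at chr16:56673205-56673808 for MT1A, chr16:56704448-56704833 for MT1H and chr16:56717082-56717141 for MT1X. The first pair cover 604 and 386 bases of genome with 60 bases of probe and so cross an intron. Where they could be aligned, the MT1A and MT1H probes matched at 42 of 46 bases (91.3%), and the MT1H and MT1X probes at 33 of 35 bases (94.3%). The accessions that the file lists for the MT1X coding probe included transcripts of MT1B, those for the MT1A probe included MT1M, and those for the second MT1E probe included MT1M and MT1JP.

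A further pair of probes, for MT1B and MT1E, end beyond the stop codon. Their coding parts are printed here, 30 bases for MT1B and 31 bases for MT1E, with the shared final codons TGTGCCTGA (cysteine, alanine, stop) in capitals.
MT1B: tcatcagagaagtgccgctgcTGTGCCTGA
MT1E: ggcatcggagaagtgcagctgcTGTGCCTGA
Over the whole probes, MT1B and MT1E matched at 49 of 59 aligned bases (83.1%). The probe of MT1F and the 3′ probe of MT1X matched at 49 of 60 aligned bases (81.7%). Values for MT1A, MT1B, MT1E, MT1F, MT1H and both probes of MT1X may therefore hold signal from more than 1 metallothionein mRNA, and how much was not tested.

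Metal response elements were searched for in the 250 bases before the start site of each promoter in RefSeq's GRCh38.p14 tables, which held 35 promoters of 26 members. The core was spelled TGCACNC or TGCGCNC, on either strand, with overlapping matches counted. It was found at least once in all 4 metallothionein promoters in the table, in 6 of 11 promoters of SLC30 genes (54.5%) and in 5 of 19 promoters of SLC39 genes (26.3%). Of 35116 promoters of all genes, 24.8% held a core and 1.58% held 3 or more. All 4 metallothionein promoters (MT1B, MT1H, MT1X and MT2A) and 1 promoter of SLC30A2 held 3 or more. MTF1's own promoter held 0 cores. Promoters of MT2A with 7 cores, MT1H with 8 cores and SLC30A1 with 1 core are printed below with the cores in capitals, since these genes are the textbook targets of MTF1.
MT2A: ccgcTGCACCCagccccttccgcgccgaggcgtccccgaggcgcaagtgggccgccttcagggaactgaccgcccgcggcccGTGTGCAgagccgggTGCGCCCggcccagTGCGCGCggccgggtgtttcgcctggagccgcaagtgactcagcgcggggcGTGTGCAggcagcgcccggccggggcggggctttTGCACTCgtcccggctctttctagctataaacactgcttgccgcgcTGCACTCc
MT1H: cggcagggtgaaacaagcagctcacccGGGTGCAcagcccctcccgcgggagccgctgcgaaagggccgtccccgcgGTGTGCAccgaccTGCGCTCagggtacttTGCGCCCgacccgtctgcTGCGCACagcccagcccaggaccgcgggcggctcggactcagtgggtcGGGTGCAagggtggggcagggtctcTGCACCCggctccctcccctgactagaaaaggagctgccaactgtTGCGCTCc
SLC30A1: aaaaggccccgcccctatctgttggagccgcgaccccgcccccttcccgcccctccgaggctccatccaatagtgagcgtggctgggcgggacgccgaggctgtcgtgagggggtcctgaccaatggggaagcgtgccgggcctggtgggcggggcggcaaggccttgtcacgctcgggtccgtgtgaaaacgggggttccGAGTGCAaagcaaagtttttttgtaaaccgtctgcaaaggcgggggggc
They are chr16:56608334-56608583 (plus strand), chr16:56669564-56669813 (plus strand) and chr1:211579162-211579411 (minus strand), each written in the direction of transcription. The cores are matches of letters, and no binding was measured.

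On every array, 58717 spots (50599 probes) were not controls; 55.6 to 60.4% of them stood well above background, and no spot was saturated. The 34 genes had 41 probes, 40 of them with 1 spot and that of SLC39A10 with 10. Outlier spots left out numbered 514 to 725 on 3 of the arrays and 2249 on replicate 3. Of these, 275 to 410 per array were flagged for the spot itself and the rest only for the local background around it. Of markers for the labelled line, 8 of 10 epithelial genes were well above background on every array, and VIL1 and CDH17 were so on none. Of the leukocyte markers 3 of 5, and of the stromal and endothelial markers 2 of 6, were well above background on every array. Over all protein-coding names the share was 70.9%. The 3 leukocyte genes were PTPRC, CD3E and CD68, with mean log2 signals relative to the array median of -2.07, -0.34 and 1.17. Signals below the array median can thus carry this flag.

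Most of the zinc genes were measurable in these cells. A gene counted as detected if any probe of it stood well above background on each of the 4 arrays. This held for 29 of 34 members (85.3%), against 52.5% of all gene names and 70.9% of the names that are protein-coding symbols in RefSeq. All 9 metallothioneins and MTF1 were detected, with 8 of 10 SLC30 genes and 11 of 14 SLC39 genes. MT1H was called through its coding probe alone, which partly matches the probes of MT1A and MT1X. Its 3′ probe was well above background on 0 arrays. A call through a probe that matches other metallothioneins does not show the mRNA of that gene itself. SLC30A8, which loads zinc into the insulin granules of beta cells, and SLC30A10, a manganese exporter, were well above background on 0 arrays. SLC39A12, known from brain, was well above background on 1 array. SLC39A5 was so on 3 arrays, and SLC39A14 missed the call through 1 outlier spot on replicate 2, described below. Of the 7 members with 2 probes, MT1E and SLC30A7 had both well above background on every array. Among the 6 of these genes that were detected, 4 had a probe that was not, beside 49.7% of all detected genes with several probes. MT1X was among the 4 because its coding probe was left out on replicates 2 and 3 for a background outlier flag. With the flagged spots kept, that probe was well above background on every array.

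**Figure D1:**
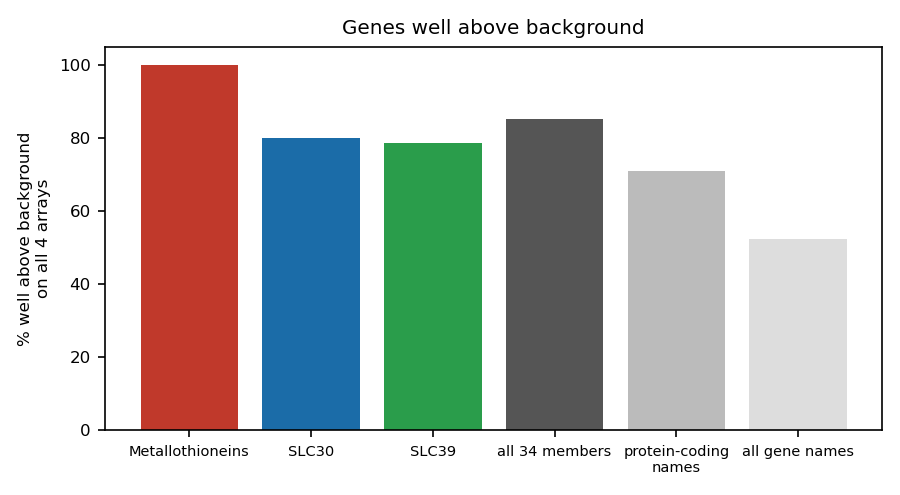
Share of genes well above background on all 4 arrays (percent, bars from 0) for the metallothioneins, SLC30 and SLC39 genes, all 34 members, protein-coding names and all gene names. All 9 metallothioneins were detected, MT1H through its coding probe alone, which partly matches other metallothionein probes. The transporter families, with 8 of 10 SLC30 genes (80%) and 11 of 14 SLC39 genes (78.6%), lay near the 70.9% of protein-coding names.

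Levels are log2 signals minus the median of their own array, so a value of 0 is the signal of the middle probe. They depend on the probe as well as the mRNA and are read only between arrays. MTF1 was among the steadiest members, at 3.51, 3.66, 3.66 and 3.54 on replicates 1 to 4 (3.59 ± 0.08, SD, n = 4). Its highest and lowest arrays differed by 1.11-fold.

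MT2A, the metallothionein usually most expressed in human cells, gave background-subtracted intensities of 258640, 248110, 283730 and 232820. Relative to the array median, MT2A was at 11.71, 11.79, 11.98 and 11.84 (mean 11.83 ± 0.11, SD, n = 4). Its arrays lay within 1.20-fold of each other.

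MT1A gave 10.49, 10.45, 10.94 and 10.59, highest on replicate 3. MT1B gave 10.22, 10.22, 10.57 and 10.29, also highest on replicate 3. MT1E, the mean of 2 probes that were both detected, gave 9.81, 9.75, 10.17 and 9.92. In these genes replicate 3 was above the others, and the other arrays lay closer together. The spread over all arrays was small, with SDs of 0.22 for MT1A, 0.17 for MT1B and 0.18 for MT1E. MT1M gave 7.05, 6.59, 7.22 and 6.97, with replicate 2 the low array and a span of 1.55-fold.

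MT1F and MT1G were also well above background on every array. MT1F was measured at 3.87, 3.89, 4.32 and 3.78, with replicate 3 again the highest. MT1G was measured at -0.84, -1.12, -0.94 and -0.97. Among the 9 members it was the 1 metallothionein whose detected probe was highest on another array than replicate 3, namely replicate 1. The MT1G intensities were 43.2, 32.2, 36.5 and 32.4, below the middle probe of their arrays.

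The probes of MT1H and MT1X set their gene values. The coding probe of MT1H, printed above, gave 9.80, 9.80, 10.28 and 10.03 (9.98 ± 0.23, SD, n = 4). The other MT1H probe, nearer the 3′ end, was well above background on 0 arrays and had a signal above 0 with no outlier flag only on replicate 2, at -4.65. The median over probes therefore used 1 probe on 3 arrays and 2 probes on replicate 2, and gave MT1H as 9.80, 2.57, 10.28 and 10.03. The SD of 3.74 for that gene value, the largest among the members, came from this change of probes, since the coding probe alone had 0.23.

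For MT1X the coding probe was left out on replicates 2 and 3, where its spot carried a background outlier flag. That spot was not flagged itself and read intensities of 51234 and 71817 on those arrays. With the flagged spots left out, MT1X was at 7.27, 4.97, 5.61 and 7.30, since only its other probe was read on replicates 2 and 3. With them kept, it was at 7.27, 7.24, 7.80 and 7.30, and its SD was 0.27 in place of 1.18. The 3′ probe of MT1X alone gave 5.00, 4.97, 5.61 and 5.00, with replicate 3 the highest and the other arrays nearly equal.

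**Figure D2:**
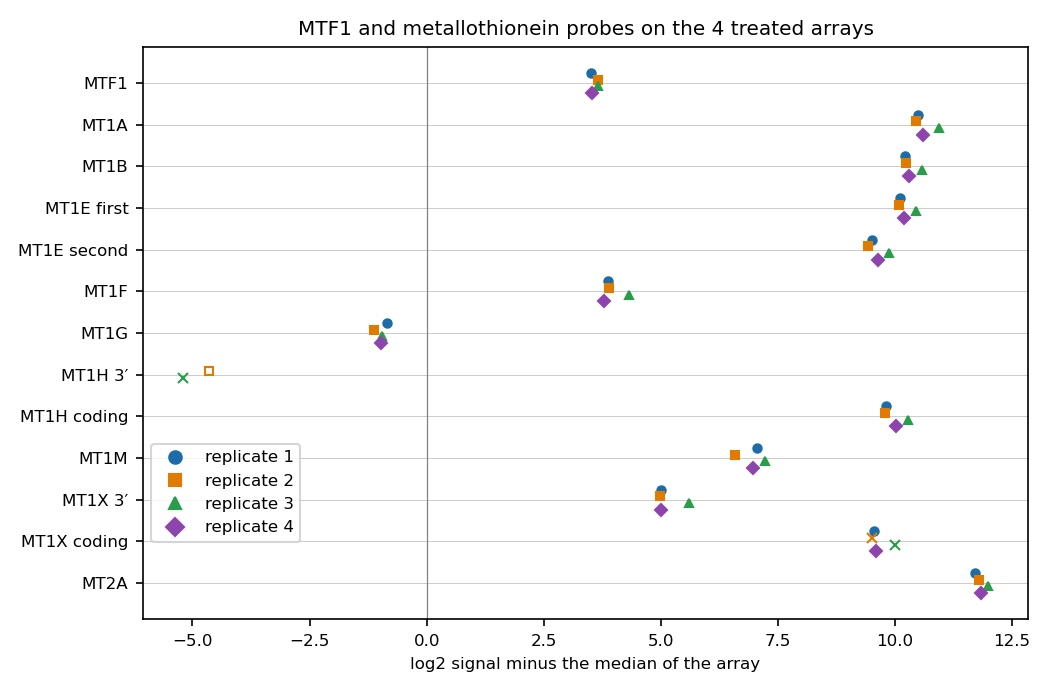
Log2 signal minus the array median for MTF1 and the 12 metallothionein member probes, with 1 symbol per treated array. Filled symbols are probes well above background on at least 1 array, the open symbol is a probe at background, and crosses are values left out for an outlier flag: on replicates 2 and 3 the coding probe of MT1X (9.51 and 10.00) lay near its values on replicates 1 and 4 (9.54 and 9.59).

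The metallothionein genes of the array formed 1 cluster on chromosome 16. Its 17 probes for 14 genes covered 116.3 kb (chr16:56601678-56718021, GRCh37), within which the probes of the 9 members spanned 74.7 kb. The other 5 metallothionein genes in it were MT3, MT4, MT1L, MT1IP and MT1DP. MT4, known from stratified epithelium, was well above background on 0 arrays. MT3, known from brain, was detected at 5.81, 5.52, 5.53 and 5.76. MT1L, whose probe shared a run of 19 bases with the first MT1E probe and matched it at 38 of 42 aligned bases (90.5%), was at 10.05, 10.08, 10.50 and 10.22. MT1DP (mean -0.57) and MT1IP (mean 0.20) were also detected. Detected and undetected probes stood side by side along the cluster, and those of MT1H lay less than 1 kb apart.

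**Figure D3:**
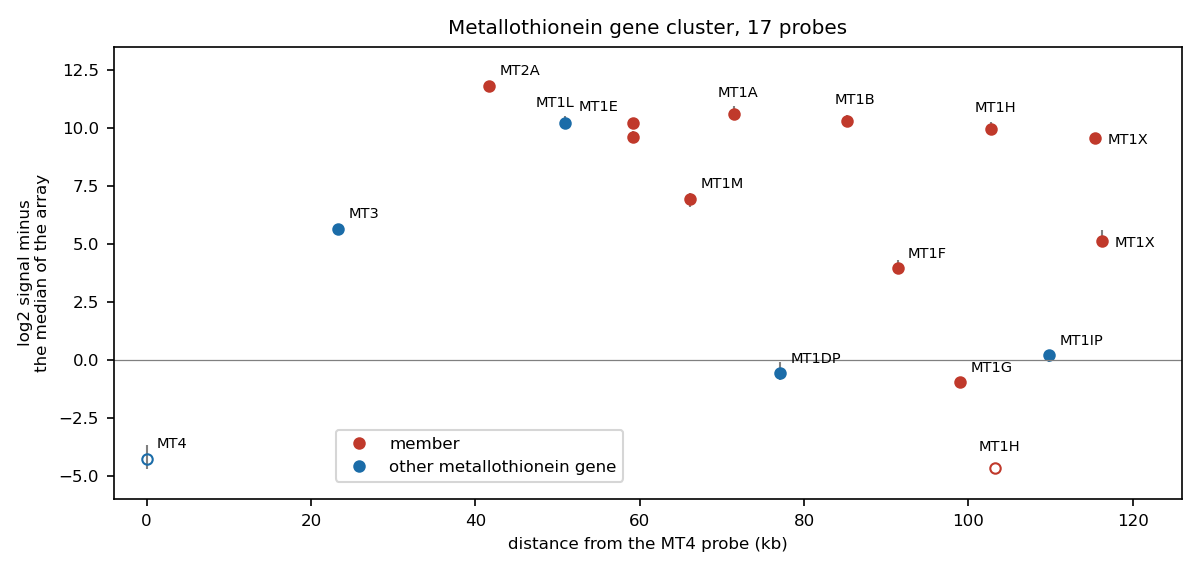
Mean log2 signal minus the array median (vertical axis, bars from the lowest to the highest array) for 17 metallothionein probes by distance from the MT4 probe in kb (horizontal axis). Open circles are probes well above background on 0 arrays (MT4 and the 3′ probe of MT1H). The mean of the MT1X coding probe is over 2 arrays, and levels of different probes are not comparable.

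Of the zinc exporters, the plasma membrane exporter SLC30A1 was the steadiest. It gave 2.88, 2.92, 2.97 and 2.77 (2.89 ± 0.08, SD, n = 4). Its 4 arrays lay within 1.15-fold. SLC30A3, best known for filling synaptic vesicles, was detected at 5.55, 5.52, 5.67 and 5.33. SLC30A2, which loads zinc into secretory vesicles, was detected at 0.11, -0.09, 0.00 and -0.16. Both spanned less than 1.4-fold.

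SLC30A5, SLC30A6 and SLC30A7 carry zinc into the early secretory pathway, where alkaline phosphatases receive it. One SLC30A5 probe was detected at 3.77, 4.16, 4.44 and 3.98. The other SLC30A5 probe was well above background on 1 array only, and the median over both gave 1.05, 0.95, 1.06 and 0.70. SLC30A6, with 1 probe of 21.7% GC, gave -0.76, -0.41, 0.17 and -0.05. Its span of 1.90-fold was the widest among the detected SLC30 genes, with replicate 1 low and replicate 3 high.

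SLC30A7 had 2 detected probes that ranked the arrays differently. The first gave 1.67, 2.06, 1.21 and 1.55, lowest on replicate 3. The second gave 1.89, 2.21, 2.83 and 1.98, highest on replicate 3. Their median of 1.78, 2.13, 2.02 and 1.77 spanned 1.29-fold, less than either probe (1.80-fold and 1.92-fold).

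SLC30A4, which fills vesicles with zinc in many tissues, gave 0.51, -0.10, -0.10 and 0.36, and the arrays fell into a higher and a lower pair. SLC30A9 gave 1.92, 2.14, 2.53 and 2.05, highest on replicate 3. The probes of SLC30A8 and SLC30A10 had a signal above 0 on 2 and 3 arrays, none of them well above background.

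Of the importers, SLC39A4, the main zinc importer of enterocytes, was detected at 7.41, 7.30, 7.87 and 7.50 (7.52 ± 0.25, SD, n = 4). Replicate 3 was the highest and the span was 1.48-fold. The widely expressed plasma membrane importer SLC39A1 gave 3.34, 3.52, 3.16 and 3.28, lowest on replicate 3. Its relatives SLC39A2 (mean -0.89 ± 0.14, SD, n = 4, highest on replicate 2 at -0.70) and SLC39A3 were both detected. SLC39A3 gave 2.21, 2.69, 1.48 and 2.05. Its replicates 2 and 3 differed by 2.31-fold, the widest span among the detected members apart from MT1H and MT1X.

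SLC39A6 and SLC39A10 are related plasma membrane importers that can act together. SLC39A6 gave 2.83, 3.01, 2.87 and 2.57. SLC39A10 gave 1.19, 1.61, 2.10 and 1.19 and is the 1 member printed as 10 spots on each array. The SD of its log2 signals between spots of 1 array was 0.14 to 0.21. The SD of its 4 array values, each a mean over spots, was 0.43.

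SLC39A7 releases zinc from the endoplasmic reticulum. It gave 4.32, 5.02, 4.34 and 4.38, with replicates 1, 3 and 4 nearly equal. Its highest array, replicate 2, was 1.62-fold above the lowest. SLC39A13, a transporter of the secretory pathway, gave 6.38, 6.47, 6.75 and 6.41. SLC39A9, found in the Golgi, gave 1.82, 2.13, 2.59 and 2.09. SLC39A11 gave 5.35, 5.35, 5.61 and 5.31, with replicate 3 above 3 close values.

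SLC39A8 and SLC39A14 also carry manganese and iron. One SLC39A8 probe was detected, at 4.67, 4.88, 5.10 and 4.61. The other SLC39A8 probe was well above background on 3 arrays, and the median over both put the gene value at 1.20, 1.90, 2.26 and 1.58. SLC39A14 had 1 probe at 7.16, 7.63 and 7.38 on replicates 1, 3 and 4, whose spot on replicate 2 was left out for its background flag at 7.49. With that spot left out the gene value was 2.76, -1.10, 2.99 and 2.79. With it kept, SLC39A14 was detected, at 2.76, 3.20, 2.99 and 2.79. SLC39A5, an importer of the basolateral membrane, gave -0.16, -0.44, -0.96 and -2.06 and was not detected.

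**Figure D4:**
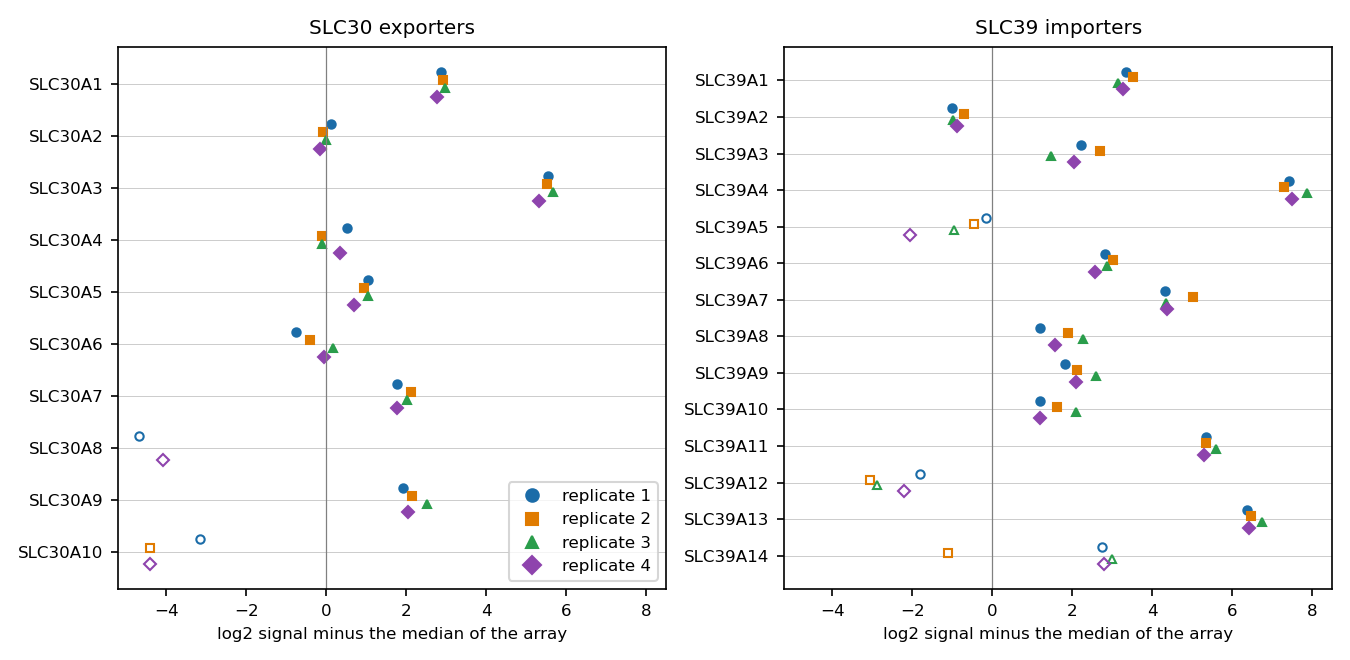
Log2 signal minus the array median of each SLC30 gene (left) and SLC39 gene (right), with 1 symbol per treated array and open symbols for genes not well above background on all 4 arrays. The point of SLC39A14 at -1.10 is replicate 2, where 1 of its 2 probes was left out.

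The families were then compared in how they varied over the replicates. The SD over the 4 arrays had a median of 0.22 among the 9 metallothioneins, 0.17 among the 8 detected SLC30 genes and 0.25 among the 11 detected SLC39 genes, beside 0.21 over all 19083 detected genes. When only probes well above background on every array were read, the median SD was 0.22 in each of the 3 families and 0.19 over all detected genes. Arrays differed by more than 1.4-fold, the fold threshold of the study, in 14 of 29 detected members, a share near the 46.4% of all detected genes. With normexp and quantile normalization 7 of 29 members did so, beside 15.5% of all detected genes. Among these 7 were MT1H (38.5-fold) and MT1X (5.27-fold), whose medians used different probes on different arrays. By the main processing the 14 were 5 of 9 metallothioneins, 3 of 8 SLC30 genes and 6 of 11 SLC39 genes. MT1A and the coding probe of MT1H lay just past that threshold, and with replicate 3 left out 7 members were past it. The span of a gene cannot widen when an array is left out, but the set of detected members can grow. The share of all detected genes was not computed without replicate 3. In 3 of 29 detected members 1 array lay apart from the rest by Dixon's ratio (the gap of the extreme array over the whole range), beside 8.48% of all detected genes. No difference between the families was tested.

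Replicate 3 gave the highest value in 19 of 29 members, beside 48.5% of all detected genes. It did so in 7 of 9 metallothioneins, or 8 of 9 over probes well above background, in 5 of 8 SLC30 genes and in 6 of 11 SLC39 genes. In the other 5 SLC39 genes (SLC39A1, SLC39A2, SLC39A3, SLC39A6 and SLC39A7) the highest array was replicate 2. Replicate 2 was highest in 25.3% of all detected genes and in 0 metallothioneins. Of the brightest of 5 equal groups of detected genes, which held 7 of the 9 metallothioneins, 72.2% were highest on replicate 3. Several metallothionein probes may also share signal, so these genes are not separate observations. Under the alternative scaling, in which the software's processed signal is set relative to the 75th percentile of its array, replicate 3 was highest in 6 metallothioneins and 14 members, beside 40.5% of all detected genes. MT1H was among these 6, at 0.43, 0.39, 8.02 and 0.78, where its 3′ probe at background was left out only on replicate 3.

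Over the probes well above background, the mean deviation of the metallothioneins from their 4-array means was -0.07, -0.16, 0.26 and -0.03 on replicates 1 to 4. Those of the SLC30 genes were -0.09, -0.02, 0.16 and -0.05, and those of the SLC39 genes -0.12, 0.13, 0.10 and -0.12. All detected genes gave -0.01, 0.04, 0.06 and -0.09, also highest on replicate 3. The means of the metallothioneins and SLC30 genes were highest on replicate 3 and that of the SLC39 genes on replicate 2. By the median over genes of the main values, the SLC39 deviation was 0.17 on replicate 2 and 0.20 on replicate 3. The SD of the mean over arrays was 0.18, 0.11 and 0.14 for the 3 families. By the median over probes it was 0.59, 0.09 and 0.15, and the first of these fell to 0.04 with replicate 2 left out, the array on which MT1H was at 2.57. That 0.04 still held a change of probes in MT1X. Its coding probe was left out on replicate 3, and MT1X stood at 5.61 there against 7.27 and 7.30 on replicates 1 and 4.

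Deviations on an array moved with brightness and base composition over the array as a whole. The detected genes were put into 5 equal groups by their mean level. Of the brightest group, 72.2% of genes were highest on replicate 3, with a median deviation of 0.17 there, against 27.6% of the dimmest. The brightest group held 7 of the 9 metallothioneins. The Spearman correlation of GC content with the deviation on replicate 3 was -0.44 over 24633 probes, -0.23 over the 31 member probes and -0.43 over the 21 of them that are not metallothionein probes. On replicate 1 it was 0.44 over all probes and 0.15 over the member probes. These values share the same 4 arrays. Metallothionein probes highest on replicate 3 ran from 30% GC (MT1M) to 55% GC (MT1A and MT1B among them). The part of brightness or GC content in the high values of replicate 3 was not tested.

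**Figure D5:**
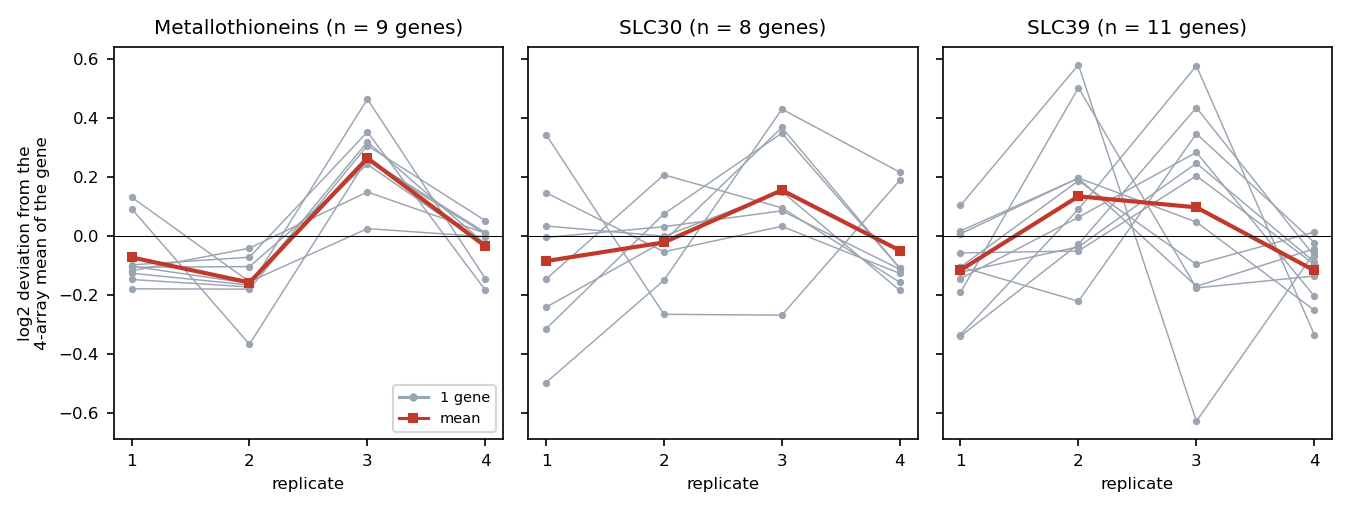
Log2 deviation of each detected gene from its own 4-array mean, by replicate, over probes well above background on all arrays; grey lines join the values of 1 gene and the red squares are the family mean. The metallothionein mean was 0.26 on replicate 3, and the SLC39 mean was 0.13 on replicate 2 and 0.10 on replicate 3.

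Other metal genes were counted from fixed lists. Of all protein-coding names on the array, 70.9% were detected. Of 6 further zinc genes found on the array, 4 were detected (ZNF658, TRPM7, MCOLN1 and ATP13A2). MCOLN1, an ion channel of lysosomes, gave 1.92, 1.82, 1.30 and 1.56. All 12 copper genes were detected. Of them 5 spanned more than 1.4-fold and 10 were highest on replicate 3, beside 46.4% and 48.5% of all detected genes. ATOX1, the copper chaperone, gave 5.98, 6.06, 6.51 and 6.16. All 3 manganese genes were detected, and TMEM165, a Golgi manganese transporter, gave 1.07, 1.20, -0.66 and 1.17. Of the 4 alkaline phosphatases, which take their zinc in the secretory pathway, ALPP and ALPPL2 were detected and ALPL and ALPI were not.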

How the data were processed

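The authors deposited the scanner output of each array (Agilent Feature Extraction 10.7.3.1, per the labels): an intensity on a linear scale for every spot, background-subtracted by that software, with no normalization between arrays. The flags in these files mark spots that are outliers, saturated or well above background, and the probe coordinates are those of GRCh37.

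Following the methods of the study, background-subtracted intensities were log2 transformed, each array was centred on its median, and genes were summarised by the median of their probes. Control spots, spots with any outlier flag and signals at or below 0 were removed first, and replicate spots were averaged. For a probe to be well above background on an array, over 50% of its spots had to carry that flag. Dixon's ratio marked genes in which 1 of the 4 arrays lay apart. The calculation of the spread and of this ratio was checked on simulated data. Errors there were independent and of equal SD in all genes, unlike those of these arrays, so the check bears on the calculation only.

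All 34 members are named; other genes are named only from fixed lists, at most 5 per list. The members and lists were chosen with earlier results of these data known. Lists covered other metallothioneins (5 of 9 names found, 4 detected), other zinc proteins (6 of 8 found), copper and manganese handling, alkaline phosphatases and markers of epithelial, leukocyte, and stromal and endothelial cells. As 1 condition was analysed, no test between groups was made. Slide and scan could not be tested as batches, since the 4 arrays shared 1 of each. The number of arrays limits the precision.

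Alternatives were the processed signal relative to the 75th percentile of its array, normexp (offset 50) with quantile normalization in limma 3.58.1, other detection rules, other filters on probes and outliers, and each array left out in turn. Chosen after seeing the data were 2 more: removing a spot only for a flag on the feature itself, and reading only probes that had a value on every array. The counts of genes highest on replicate 3 under the alternatives were also added then. Python 3.11.15, numpy 2.4.6, pandas 2.3.3 and R 4.3.3 were used.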

Additional observations from a re-analysis of the deposited data

Results flagged for a closer look

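By Dixon's ratio, 3 of 29 detected members had 1 array apart from the other 3, beside 8.48% of all detected genes and about 5% by chance alone. In MT1H replicate 2 was the low array (2.57, against 9.80 to 10.28 on the others); there a probe at background entered the median. In SLC39A7 replicate 2 was the high array (5.02, against 4.32 to 4.38), and in SLC39A11 replicate 3 was (5.61, against 5.31 to 5.35); each has 1 probe with 1 spot per array. SLC39A14, which was not detected, stood at -1.10 on replicate 2 against 2.76 to 2.99 elsewhere, where its brighter probe was left out. The mean deviation of the metallothioneins was -0.89 on replicate 2 against 0.25 to 0.34 on the others, and -0.16 over probes well above background. Of the other zinc and manganese genes, ZNF658 was high on replicate 3 (2.98, against 2.38 to 2.40) and TMEM165 was low there (-0.66, against 1.07 to 1.20). In all, 7 of 62 sets of 4 values were marked. Which members were marked moved with the processing: MT1H and SLC39A13 (replicate 3 apart in both) under the processed signal, MT1H (replicate 3), MT1M and SLC30A2 (replicate 2) under normexp with quantile normalization, and MT1X (replicate 3), SLC39A7 and SLC39A11 over probes well above background. Under the processed signal and normexp, the 3′ probe of MT1H at background was left out of the median only on replicate 3.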

How the results depend on the processing

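The number of members detected was 29 to 31 with 1 array left out, 30 with outlier spots kept, 32 by either a test of signal against background or a call on at least 1 array, and 25 when most probes of a gene had to pass. The share of all gene names under these other rules was not computed, so these counts cannot be set against the array. The number spanning more than 1.4-fold was 14, and was 7 with normexp and quantile normalization (15.5% of all detected genes, in place of 46.4%). MT1H and MT1X, whose medians used different probes on different arrays, were among these 7. With 1 array left out the number ranged from 7 (without replicate 3) to 15 (without replicate 4, where 31 members were detected). No share of all detected genes was computed with an array left out. The median SD of detected members was 0.13 with normexp and quantile normalization and 0.14 to 0.25 with 1 array left out. The SD of the metallothionein mean was 0.18 with only probes well above background and 0.18 with only probes that had a value on all arrays. With 1 array left out it ranged from 0.042 (without replicate 2) to 0.69. Without replicate 2, MT1X was still read without its coding probe on replicate 3. The SD of the SLC30 mean ranged from 0.020 (without replicate 3) to 0.10. The SD of the SLC39 mean was 0.087 with the processed signal, 0.055 with normexp and quantile normalization and 0.14 with only probes well above background, and ranged from 0.13 to 0.16 with 1 array left out. Levels of SLC30A5 and SLC39A8 moved by more than 1 SD with only probes well above background, to 4.09 and 4.81. With the processed signal, which has another zero point, levels shifted by a median of -2.41, and that of MT1H by -5.76, to 2.41. For MT1H its 3′ probe at background also entered the median on replicates 1, 2 and 4. Metallothioneins highest on replicate 3 numbered 5 to 8 over the alternatives, beside 37.9 to 49.7% of all detected genes. No paired analysis was possible because only the treated samples were analysed here and the results come from no test. With 1 spot for most probes, the error within an array is unknown for 33 of the 34 members.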
